A study of Homo sapiens with 4 samples.

Results

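Claudins are the membrane proteins that build tight junctions, and 10 claudin genes were followed here across the 4 conditions of the study. The genes were CLDN1, CLDN2, CLDN3, CLDN4, CLDN6, CLDN7, CLDN9, CLDN10, CLDN12 and CLDN16, chosen by name, and every non-control spot of the array whose RefSeq accession belongs to 1 of them was taken. This gave 14 probes with 1 spot each, out of 41000 non-control probes and 17721 genes with a symbol. OVSAYO cells, an established line from a human ovarian clear cell carcinoma (CCC), were given either a non-specific siRNA as negative control (NS-si) or a pool of siRNAs against Sp1 (Sp1-si). According to the labels they were then cultured for 40 h, a longer time than the study's figure legend gives, and RNA was taken with no CoCl2 or after 4 h with 0.5 mM CoCl2 (NS-si → CoCl2 and Sp1-si → CoCl2). CoCl2 is a hypoxia-mimicking agent that stabilises the hypoxia-inducible factors (HIFs), and the study asked which genes need Sp1 for their response to it. All 4 groups share the cell line and a transfection, each was hybridised once in 1 colour to a whole human genome array, and the 4 arrays lay on 1 slide.

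In a tight junction, claudins of neighbouring epithelial cells meet in strands that close the space between the cells. Some members, such as CLDN1, CLDN3, CLDN4 and CLDN7, mainly seal this space, whereas CLDN2, CLDN10 and CLDN16 form or help to form pores that let chosen ions through. The strands are tied to the cytoskeleton by scaffold proteins and sit beside other membrane proteins such as occludin. CLDN3, CLDN4 and CLDN7 are known as genes with high levels in ovarian carcinoma, and Sp1 is a ubiquitous transcription factor that binds GC boxes, which occur in many promoters without a TATA box.

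CLDN16 was the claudin that differed most between the arrays, with a level about 4-fold lower after Sp1 silencing, both without and with CoCl2. CLDN7 was 1.96-fold lower in Sp1-si cells without CoCl2, and CLDN3 was 1.56-fold lower. CLDN4 was higher with CoCl2 in both kinds of cells. CLDN9 and, without CoCl2, CLDN1 differed little between the conditions, and CLDN2 was not measurable. With 1 array per condition there was no replicate, so no test was run and each difference below compares single cultures.

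The bases just before the annotated gene starts are shown for the claudins whose levels differed, and for CLDN1, whose levels without CoCl2 did not. Each sequence is 250 bases long, from the RefSeq promoter table on GRCh38.p14, and runs 5′ to 3′ on the strand of the gene, with GC boxes (GGGCGG on either strand) in capitals.
CLDN16 start 1 (chr3:190290111-190290360, plus strand): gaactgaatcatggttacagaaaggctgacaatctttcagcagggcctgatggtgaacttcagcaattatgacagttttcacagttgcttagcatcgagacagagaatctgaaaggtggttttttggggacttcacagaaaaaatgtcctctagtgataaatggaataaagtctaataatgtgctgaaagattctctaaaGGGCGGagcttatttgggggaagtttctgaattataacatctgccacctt
CLDN16 start 2 (chr3:190387913-190388162, plus strand): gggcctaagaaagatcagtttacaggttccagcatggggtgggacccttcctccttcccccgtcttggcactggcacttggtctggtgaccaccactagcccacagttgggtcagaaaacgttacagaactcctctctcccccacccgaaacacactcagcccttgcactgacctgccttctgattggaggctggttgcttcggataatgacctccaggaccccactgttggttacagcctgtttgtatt
CLDN7 start 1 (chr17:7263214-7263463, minus strand): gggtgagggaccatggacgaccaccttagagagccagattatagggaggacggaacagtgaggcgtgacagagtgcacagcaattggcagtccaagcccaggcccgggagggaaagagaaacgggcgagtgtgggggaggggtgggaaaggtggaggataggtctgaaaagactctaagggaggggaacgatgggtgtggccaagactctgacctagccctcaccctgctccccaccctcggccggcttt
CLDN7 start 2 (chr17:7262479-7262728, minus strand): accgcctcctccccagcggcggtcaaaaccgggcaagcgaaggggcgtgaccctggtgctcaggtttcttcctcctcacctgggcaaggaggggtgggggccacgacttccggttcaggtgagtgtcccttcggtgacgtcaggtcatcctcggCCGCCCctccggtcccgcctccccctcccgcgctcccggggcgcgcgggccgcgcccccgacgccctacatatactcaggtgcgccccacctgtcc
CLDN3 (chr7:73770271-73770520, minus strand): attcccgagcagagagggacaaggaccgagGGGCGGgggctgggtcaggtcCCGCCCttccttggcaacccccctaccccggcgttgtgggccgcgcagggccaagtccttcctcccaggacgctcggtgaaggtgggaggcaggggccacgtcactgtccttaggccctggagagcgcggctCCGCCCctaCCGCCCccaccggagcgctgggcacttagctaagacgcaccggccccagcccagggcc
CLDN4 (chr7:73830746-73830995, plus strand): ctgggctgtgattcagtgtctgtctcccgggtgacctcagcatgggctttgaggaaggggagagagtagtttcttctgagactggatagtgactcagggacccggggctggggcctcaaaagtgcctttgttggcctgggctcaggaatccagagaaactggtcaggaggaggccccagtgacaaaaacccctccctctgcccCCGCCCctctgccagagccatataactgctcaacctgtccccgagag
CLDN1 (chr3:190322447-190322696, minus strand): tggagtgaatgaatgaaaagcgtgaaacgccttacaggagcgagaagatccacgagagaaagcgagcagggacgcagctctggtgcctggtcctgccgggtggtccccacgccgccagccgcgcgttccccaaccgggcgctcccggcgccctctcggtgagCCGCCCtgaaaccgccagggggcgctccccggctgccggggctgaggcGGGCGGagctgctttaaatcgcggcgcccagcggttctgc
A start is numbered where the table holds more than 1 for a gene, and the array does not tell which start was used.

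The table held 13 such windows for 9 of the 10 genes, and CLDN9 was not among them. CLDN3 had 4 GC boxes in its window, CLDN1 and CLDN6 had 2 each, and CLDN4 had 1. CLDN7 had 0 before its first start and 1 before its second start, CLDN10 had 0 and 3, and CLDN16 had 1 and 0. CLDN2 had 0 before either start and CLDN12 had 0. Of all 35116 windows in the table, 42.6% held at least 1 GC box and 13.9% held 3 or more. The core of the hypoxia response element (HRE), written as ACGTG or GCGTG on either strand, occurred 2 times in the window of CLDN1. It occurred 1 time each in the windows of CLDN3, CLDN6 and both starts of CLDN7, 2 times before the second start of CLDN10, and 0 times in the other windows. None of these matches overlapped a GC box, and 43.2% of all windows held an HRE core. These matches describe the letters only, and binding of a factor was not measured on the arrays.

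The genes also lie close to each other in places. CLDN1 and CLDN16 have overlapping spans on chromosome 3, with CLDN1 read from the minus strand and CLDN16 from the plus strand. CLDN3 and CLDN4 are neighbours on chromosome 7 with 0 protein-coding genes between them, and so are CLDN6 and CLDN9 on chromosome 16.

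A level is given below as the processed signal of a probe, a background-subtracted brightness in arbitrary units that was not scaled between arrays. A log2 ratio is the difference of 2 log2 signals after the 75th percentile of each array was subtracted. These percentiles were 1142 for NS-si, 1100 for Sp1-si, 977 for NS-si → CoCl2 and 1285 for Sp1-si → CoCl2, so a ratio is not the plain quotient of 2 printed signals. Leaving out this scaling would shift the median log2 ratio of all probes by 0.40 for Sp1-si → CoCl2 to NS-si → CoCl2, by -0.23 for CoCl2 in NS-si cells and by 0.22 for CoCl2 in Sp1-si cells. The claudin probes had 1 spot, and the expected spot SD given beside a ratio is the median SD between spots of the 25 probes with 10 spots that were nearest in signal. It covers the spots of an array and not the spread between cultures. Between 33081 and 34542 of the 43376 spots of an array were well above background by the call of the scanner software, and 0 spots were saturated.

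The transcript targeted by the siRNA was lower in the cells labelled Sp1-si. The SP1 probe A_23_P366312 had signals of 553 (NS-si) and 39.2 (Sp1-si) without CoCl2 and 429 (NS-si) and 38.7 (Sp1-si) with it, with log2 ratios of -3.77 without and -3.87 with CoCl2. Of the epithelial markers CDH1, EPCAM, KRT7, KRT8, KRT18 and KRT19, 6 of 6 passed as well above background everywhere. The same held for NAPSA and ANXA4, which mark ovarian CCC. Of all 41000 probes 30234 passed in this way, so a pass alone does not mark a cell type.

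Of the 14 claudin probes, 13 probes of 9 genes passed as well above background on each array. The exception was CLDN2, a pore for small cations and water, whose probe A_23_P394947 had signals of 1.67 (NS-si) and 1.45 (Sp1-si) without CoCl2 and 1.51 (NS-si) and 2.26 (Sp1-si) with it. It was well above background on none of the arrays, so no ratio is given for it.

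A probe is counted as called when its log2 ratio was at least 1 in size and it was well above background on every array of the comparison. In Sp1-si against NS-si cells without CoCl2, 1 of the 13 claudin probes was called lower and 0 were called higher, where 5.38% of all 31437 probes measured were lower and 5.01% higher. With CoCl2, again 1 probe was called lower and 0 higher, beside 9.16% and 6.08% of 30514 probes. The called probe was that of CLDN16 each time, and 3.55% of 30234 probes were called lower in both comparisons, with 3.42% called higher in both. For CoCl2 against no CoCl2, 0 claudin probes were called in either direction, in NS-si cells (4.06% of 31313 probes higher and 3.83% lower) or in Sp1-si cells (3.47% of 30685 higher and 5.74% lower). In the difference between the CoCl2 ratio after Sp1 silencing and that of NS-si cells the count was 0 as well, beside 1.05% higher and 4.87% lower of 30234 probes. With so few probes, 1 call in 13 lies near these shares.

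The median over the 9 measured genes, each represented by its brightest probe, was set beside the median of all 30234 probes. For Sp1-si to NS-si it was -0.02 without CoCl2, beside -0.01 for all probes, and -0.06 with CoCl2, beside -0.06. For CoCl2 it was -0.03 in NS-si cells, beside 0.02, and -0.07 in Sp1-si cells, beside -0.02. For the difference of the CoCl2 ratios it was 0.13, beside -0.01, the widest gap between the claudins and all probes among the 5 comparisons. Its size and sign depended on the processing, as given in the last section. In this difference 2 genes lay above the middle 50% of all probes and 0 below it. For CoCl2 the counts were 1 above and 1 below in NS-si cells and 3 and 0 in Sp1-si cells. For Sp1-si to NS-si they were 1 above and 3 below without CoCl2 and 1 and 1 with it. In the Sp1-si cells without CoCl2, 4 genes were higher and 5 lower. The differences below are those of single members.

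**Figure D1:**
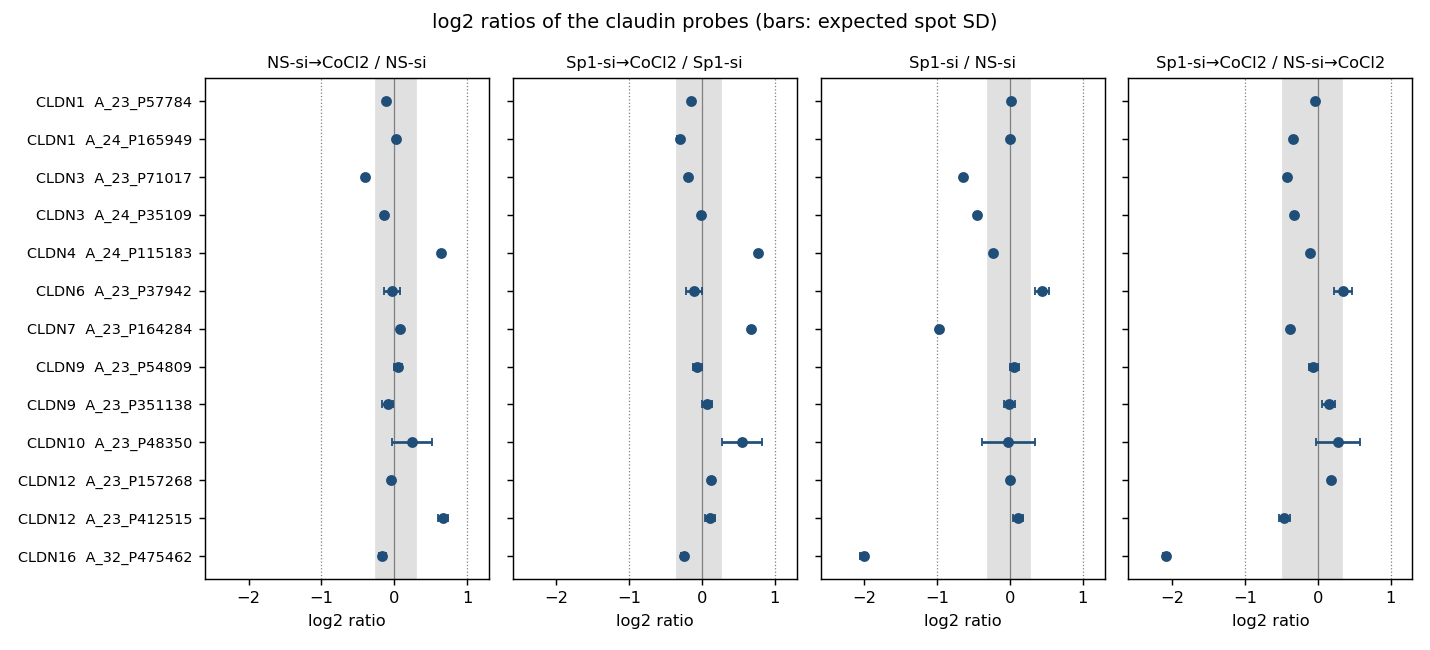
The log2 ratio of each claudin probe in the 4 comparisons, scaled to the 75th percentile. Bars are 1 expected spot SD, the grey band spans the middle 50% of the 30234 probes that passed on each array and dotted lines mark a size of 1. CLDN16 is the probe beyond -1 in both Sp1-si comparisons, CLDN4 lies to the right of the band in both CoCl2 comparisons, and CLDN7 lies to the left of it after Sp1 silencing without CoCl2 only.

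Among the pore-forming claudins, CLDN16 is needed in the kidney for the reabsorption of magnesium and calcium between the cells. Its probe A_32_P475462 had signals of 911 (NS-si) and 218 (Sp1-si) without CoCl2 and 695 (NS-si) and 215 (Sp1-si) with it. Both NS-si arrays were high and both Sp1-si arrays low. The log2 ratio of Sp1-si to NS-si was -2.01 without CoCl2 (expected spot SD 0.046), a level 4.02-fold lower, and -2.09 with CoCl2 (expected spot SD 0.043), a level 4.25-fold lower. Under all settings tried it stayed between -2.06 and -1.81 without CoCl2 and between -2.09 and -1.69 with it. CoCl2 made little difference beside this, with log2 ratios of -0.17 for NS-si and -0.24 for Sp1-si cells, whose difference of -0.08 compares with an expected spot SD of 0.067. In the order of the levels, NS-si stood above NS-si → CoCl2, which stood above Sp1-si, and Sp1-si → CoCl2 was lowest, with each step larger than 2 expected spot SDs. The last step rests on the scaling, since the CoCl2 ratio in Sp1-si cells came to -0.02 without it.

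CLDN1, whose gene lies within the span of CLDN16, had log2 ratios of Sp1-si to NS-si of 0.01 without and -0.03 with CoCl2 on its first probe. On its second probe they were 0.00 and -0.33 (expected spot SD of the latter 0.029), and the latter became 0.06 without scaling.

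The search covered 20925 other probes that had a symbol and passed on each array, and the 5 whose values over the 4 arrays came closest to those of CLDN16 belonged to APOM, ANKEF1, QPRT (by 2 probes) and SLC10A7. Likeness was measured as the root mean square distance of the centred log2 values, which ran from 0.039 for APOM to 0.063 for SLC10A7. The APOM probe had signals of 7989 (NS-si) and 2063 (Sp1-si) without CoCl2 and 6282 (NS-si) and 1975 (Sp1-si) with it. APOM encodes an apolipoprotein and QPRT an enzyme of NAD synthesis. Only 4 arrays enter this measure.

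Some fibroblast, leukocyte and epithelial markers were lower on the Sp1-si arrays too. Of 4 fibroblast markers on the array, 3 passed on each array (COL1A2, DCN and LUM) and COL3A1 passed on none. The summed signal of the 4 was 875 (NS-si) and 377 (Sp1-si) without CoCl2 and 650 (NS-si) and 443 (Sp1-si) with it. Most of it came from LUM, with 766, 350, 558 and 408 in the same order. Of 4 leukocyte markers, 3 were measured on all arrays and PTPRC, which defines leukocytes, passed on none. The summed signal of the 4 was 1131, 611, 1191 and 911 in the same order. Of these, CD68 had signals of 720, 248, 785 and 402, with log2 ratios of Sp1-si to NS-si of -1.48 without and -1.36 with CoCl2. The brighter CD3E probe had ratios of -0.18 and -0.14, and CD14 had -0.02 and 0.10. Of 4 endothelial markers, PECAM1, CDH5 and KDR were well above background on none of the arrays, and the summed signal of the 4 was 54.5, 68.1, 48.0 and 63.6. The brighter probe of VWF passed on each array, with signals of 40.1, 52.1, 34.4 and 51.0. Its log2 ratios of Sp1-si to NS-si were 0.43 without and 0.17 with CoCl2 (expected spot SDs 0.15 and 0.16). Of the 6 epithelial markers 1 was called lower in both comparisons, beside 5.38% and 9.16% of all probes. This was CDH1, the adhesion molecule E-cadherin, with signals of 39380 (NS-si) and 12931 (Sp1-si) without CoCl2 and 42491 (NS-si) and 16848 (Sp1-si) with it. Its log2 ratios were -1.55 and -1.73. By the brightest probe, KRT18 was at -0.49 and -0.50, KRT7 at -0.42 and -0.22 and KRT8 at -0.18 and -0.09. EPCAM was at 0.18 and -0.01 and KRT19 at 0.17 and 0.14. At this scaling 4 of the 6 epithelial markers were below 0 without CoCl2 and 5 with it. NAPSA of the CCC markers was also called lower in both comparisons, beside the same shares of all probes, with log2 ratios of -2.33 without and -2.39 with CoCl2. ANXA4 was not called, with ratios of -0.23 and -0.25. All 4 arrays came from cultures of the same established carcinoma line, and the part of these markers in the CLDN16 result was not tested. Fewer cells of a type and less RNA per cell cannot be told apart in bulk RNA.

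CLDN10 forms pores for cations or anions depending on its isoform. Its probe A_23_P48350 was dim, with signals of 10.54 (NS-si) and 9.99 (Sp1-si) without CoCl2 and 10.7 (NS-si) and 17.04 (Sp1-si) with it. The lowest signals well above background on these arrays were 7.39, 6.72, 6.93 and 10.2. The highest level was that of Sp1-si → CoCl2 cells, but no step in the order of the conditions exceeded 2 expected spot SDs. The log2 ratio of CoCl2 to no CoCl2 in Sp1-si cells was 0.55 with an expected spot SD of 0.27, and it became negative (-0.06) with a normexp background correction.

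**Figure D2:**
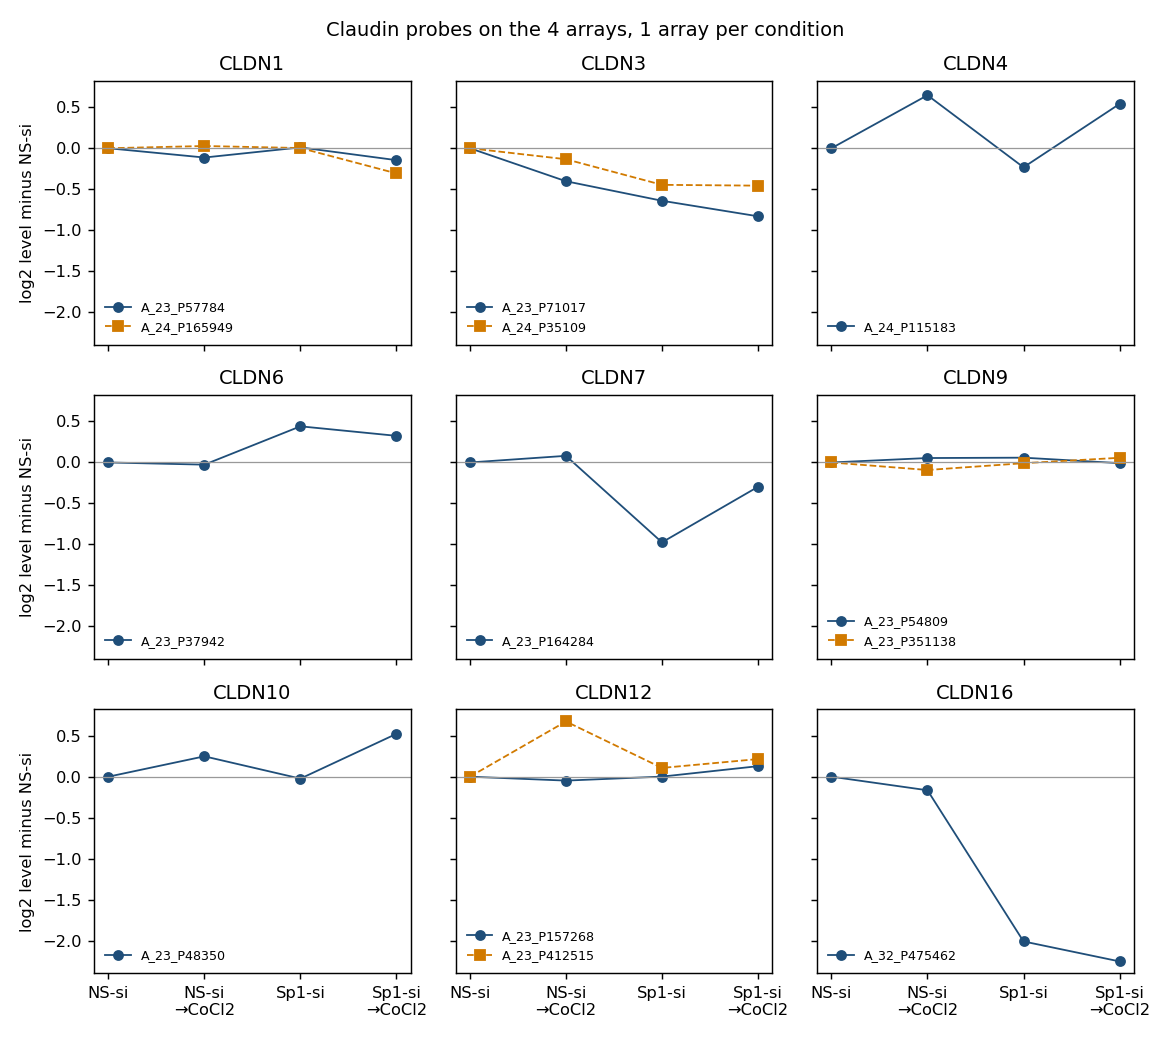
The log2 level of each claudin probe in the 4 conditions minus its own level in NS-si cells, scaled to the 75th percentile, with 1 array per condition and lines that only join the points of a probe. Circles show the brightest probe and squares the second probe of a gene. CLDN16 is at -2.01 in Sp1-si cells without CoCl2, CLDN4 is high in both CoCl2 conditions, and the probes of CLDN12 part in NS-si → CoCl2 cells.

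Among the sealing claudins, CLDN7, which associates with the adhesion molecule EPCAM, had 1 probe, A_23_P164284. Its signals were 12336 (NS-si) and 6049 (Sp1-si) without CoCl2 and 11159 (NS-si) and 11298 (Sp1-si) with it. The Sp1-si array without CoCl2 stood below the other arrays. There the log2 ratio of Sp1-si to NS-si was -0.97 (expected spot SD 0.025), just short of the threshold of 1, and without scaling it was -1.03 and would be called. With CoCl2 the ratio was -0.38 (expected spot SD 0.027), and it turned to 0.02 without scaling. For CoCl2 the log2 ratio was 0.08 in NS-si cells, turning to -0.14 without scaling, and 0.68 in Sp1-si cells, a level 1.60-fold higher. The difference between these CoCl2 ratios was 0.60 (expected spot SD 0.036) and ranged from 0.52 to 1.05 over the settings, the highest value being that without scaling. At a lower threshold of 0.58 CLDN7 was the 1 claudin probe called in this difference, beside 5.65% of all 30234 probes.

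CLDN3, like CLDN4 a receptor for the enterotoxin of Clostridium perfringens, was measured by a pair of probes. The brighter probe A_23_P71017 had signals of 18918 (NS-si) and 11691 (Sp1-si) without CoCl2 and 12244 (NS-si) and 11976 (Sp1-si) with it. The other probe A_24_P35109 had signals of 2465, 1742, 1921 and 2021 in the same order. On both probes NS-si cells without CoCl2 had the highest scaled level. The log2 ratio of Sp1-si to NS-si was -0.64 on the first probe (expected spot SD 0.027) and -0.45 on the second (expected spot SD 0.029), a level 1.56-fold and 1.36-fold lower. With CoCl2 it was -0.43 and -0.32, of which the second turned to 0.07 without scaling and the first came to -0.03. CoCl2 itself gave -0.40 and -0.13 in NS-si cells and -0.19 and -0.01 in Sp1-si cells, and both values in Sp1-si cells turned positive without scaling. The probes had the same sign in each comparison, although the -0.01 lies within its expected spot SD of 0.032, and the dimmer probe had the smaller sizes.

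CLDN4, the neighbour of CLDN3 on chromosome 7, followed the CoCl2 treatment. Its probe A_24_P115183 had signals of 4845 (NS-si) and 3973 (Sp1-si) without CoCl2 and 6487 (NS-si) and 7928 (Sp1-si) with it. Both arrays with CoCl2 were above both arrays without it. The log2 ratio for CoCl2 was 0.65 in NS-si cells (expected spot SD 0.029), a level 1.57-fold higher, and 0.77 in Sp1-si cells (expected spot SD 0.028), a level 1.71-fold higher. The settings moved these values between 0.42 and 0.65 and between 0.718 and 0.997. CLDN4 was the 1 claudin probe with a ratio of at least 0.58 in both kinds of cells, beside 5.77% of all 30234 probes. Sp1 silencing gave -0.23 without CoCl2 and -0.11 with it, and the latter turned to 0.29 without scaling. CLDN3 and CLDN4 thus differed in the sign of their CoCl2 ratio in NS-si cells under each setting tried, although 0 protein-coding genes lie between them.

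CLDN1, which is required for the barrier of the skin, had a pair of probes. On A_23_P57784 the signals were 50869 (NS-si) and 49351 (Sp1-si) without CoCl2 and 40224 (NS-si) and 51755 (Sp1-si) with it, and on A_24_P165949 they were 5641, 5443, 4917 and 5131. After scaling, the conditions without CoCl2 did not differ beyond 2 expected spot SDs on either probe. The log2 ratio of Sp1-si to NS-si without CoCl2 was 0.01 on the first and 0.00 on the second probe. With CoCl2 the probes parted, at -0.03 and -0.33 (expected spot SDs 0.021 and 0.029), and both turned positive without scaling (0.36 and 0.06). For CoCl2 the first probe gave -0.11 in NS-si cells and -0.16 after Sp1 silencing, and the second 0.03 and -0.31. The second probe alone had its lowest level set apart in Sp1-si → CoCl2 cells.

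**Figure D3:**
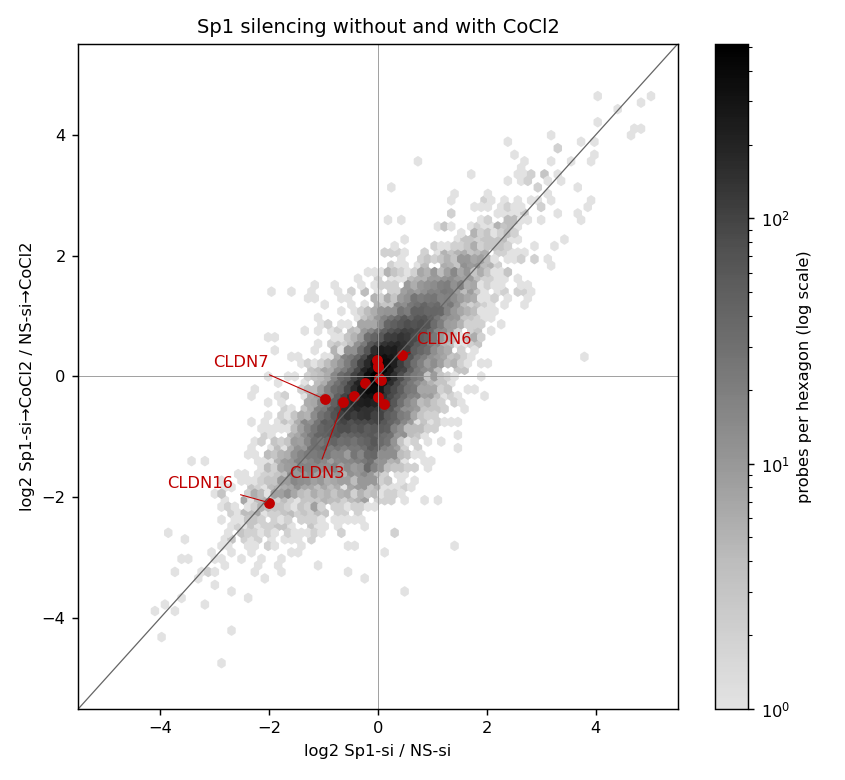
Log2 ratio of Sp1-si to NS-si cells without CoCl2 (horizontal axis) against that with CoCl2 (vertical axis). Grey hexagons count the 30234 probes that passed on each array and red points are the 13 claudin probes. CLDN16 lies at -2.01 and -2.09 near the diagonal line of equal ratios, and CLDN7 at -0.97 and -0.38 above it, the latter becoming 0.02 without scaling.

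CLDN6, CLDN9 and CLDN12 complete the list. CLDN6 is an embryonic claudin that returns in some carcinomas, and its probe A_23_P37942 had signals of 52.5 (NS-si) and 68.6 (Sp1-si) without CoCl2 and 44.0 (NS-si) and 73.9 (Sp1-si) with it. Both Sp1-si arrays were above both NS-si arrays. Its log2 ratio of Sp1-si to NS-si was 0.44 without CoCl2 (expected spot SD 0.10), the highest of the 9 leading claudin probes, and 0.35 with CoCl2 (expected spot SD 0.12). The latter was as low as 0.03 with the normexp correction, and the CoCl2 ratios of -0.03 and -0.12 were of the size of their spot SDs of 0.11 each. Its neighbour CLDN9, known from the inner ear, had log2 ratios of Sp1-si to NS-si between -0.06 and 0.15 on its probes A_23_P54809 and A_23_P351138. The signals of the first were 195 (NS-si) and 195 (Sp1-si) without CoCl2 and 173 (NS-si) and 218 (Sp1-si) with it, those of the second were 124, 119, 99.8 and 146, and no step between conditions exceeded 2 expected spot SDs on either probe.

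CLDN12, an unusual claudin without the tail motif that binds scaffold proteins, gave different answers on its 2 probes. On A_23_P157268 the signals were 5502 (NS-si) and 5304 (Sp1-si) without CoCl2 and 4553 (NS-si) and 6767 (Sp1-si) with it, and the log2 ratios for CoCl2 were -0.05 for NS-si and 0.13 for Sp1-si cells. On A_23_P412515 the signals were 120, 125, 164 and 157, and the ratios for CoCl2 were 0.67 and 0.11. The second probe was highest in NS-si → CoCl2 cells and the first in Sp1-si → CoCl2 cells. With CoCl2 the log2 ratio of Sp1-si to NS-si was accordingly 0.18 on the first probe (expected spot SD 0.027) and -0.46 on the second (expected spot SD 0.079). Both signs held under each setting tried, so no single direction can be given for the gene. Whether any of the claudin probes also binds the transcript of a related claudin was not tested.

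Lowering the threshold to 0.58 added few calls. It brought the claudin probes lower in Sp1-si cells without CoCl2 to 3 (CLDN3, CLDN7 and CLDN16), beside 13.2% of all probes, and left 1 with CoCl2, beside 21% of all probes. The probes higher with CoCl2 became 2 in NS-si cells (CLDN4 and the dimmer CLDN12 probe), beside 11.9%, and 2 in Sp1-si cells (CLDN4 and CLDN7), beside 10.5%.

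Of 13 further claudins, 10 were on the array and 5 of these were well above background on all 4 arrays, namely CLDN5, CLDN11, CLDN14, CLDN15 and CLDN23. CLDN18 and CLDN19 passed on 3 arrays, CLDN22 on the NS-si array, and CLDN8 and CLDN17 on none, while CLDN20, CLDN24 and CLDN25 matched no probe. CLDN23 had signals of 632 (NS-si) and 266 (Sp1-si) without CoCl2 and 672 (NS-si) and 398 (Sp1-si) with it. Like CLDN16 it was low on both Sp1-si arrays, with log2 ratios of -1.20 and -1.15, and it was the 1 of 7 further claudins called lower without CoCl2, beside 5.38% of all probes. With CoCl2, 2 of 5 were called lower, beside 9.16% of all probes, the other being CLDN5, the claudin of blood vessels, with a ratio of -1.04 from a signal of 50.03 to 31.9. Leaving out the scaling would raise each Sp1-si to NS-si ratio with CoCl2 by 0.40, and neither CLDN23 nor CLDN5 would then be called. CLDN15, a sodium pore of the gut, had signals of 134, 82.9, 184 and 123 and ratios of -0.64 and -0.98.

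The partners of claudins in the junction were taken from a list of 30 genes, of which 26 passed on each array. In Sp1-si against NS-si cells, 3 were called higher and 2 lower without CoCl2, and 2 higher and 4 lower with CoCl2. Of all probes, 5.01% were called higher and 5.38% lower without CoCl2, and 6.08% and 9.16% with it. Their median log2 ratio was -0.07 without CoCl2, where that of all probes was -0.01, and -0.45 with CoCl2, where that of all probes was -0.06. Leaving out the scaling would raise each ratio with CoCl2 by 0.40. The scaffolds stood on both sides of these medians. CGN (cingulin), which links the junction to actin and myosin, had signals of 3568 (NS-si) and 1193 (Sp1-si) without CoCl2 and 2825 (NS-si) and 871 (Sp1-si) with it, and log2 ratios of -1.53 and -2.09. Its second probe gave -1.56 and -2.50. MARVELD2 (tricellulin), found at the corners between cells, had signals of 342, 208, 259 and 127 and ratios of -0.67 and -1.42. On the other side, MAGI3 had signals of 208, 1050, 184 and 777 in the same order, with ratios of 2.39 and 1.69, and AMOT (angiomotin), a binder of polarity proteins and of YAP, had signals of 54.5, 441, 35.9 and 473, with ratios of 3.07 and 3.32.

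Occludin (OCLN), added after its values were seen because it is the classic partner of claudins, showed an order like that of CLDN7. Its signals were 2067 (NS-si) and 1036 (Sp1-si) without CoCl2 and 1911 (NS-si) and 1665 (Sp1-si) with it. The log2 ratio of Sp1-si to NS-si was -0.94 without and -0.59 with CoCl2, and a second probe gave -0.94 and -0.77. For CoCl2, 0 of the 26 partners were called in NS-si cells, where 4.06% of all probes were higher and 3.83% lower. In Sp1-si cells 0 partners were called higher and 1 lower, where 3.47% of all probes were higher and 5.74% lower.

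Of 18 genes known to regulate claudins or epithelial junctions, 15 were measured on all arrays. CoCl2 gave 1 call higher and 1 lower in NS-si cells and 5 higher and 0 lower in Sp1-si cells. The shares of all probes were 4.06% higher and 3.83% lower in NS-si cells and 3.47% and 5.74% after Sp1 silencing. KLF4, a factor of differentiated epithelia, had signals of 178 (NS-si) and 136 (Sp1-si) without CoCl2 and 406 (NS-si) and 413 (Sp1-si) with it, and like CLDN4 it was higher with CoCl2 in both kinds of cells, with log2 ratios of 1.41 and 1.37. GRHL1, a relative of the CLDN4 activator GRHL2, had signals of 57.3, 39.1, 74.1 and 108 and CoCl2 ratios of 0.60 for NS-si and 1.23 for Sp1-si cells. GRHL2 itself, added after its values were seen, went the other way. Its signals were 285, 224, 188 and 175, with CoCl2 ratios of -0.38 for NS-si and -0.59 for Sp1-si cells. In Sp1-si against NS-si cells, 1 regulator was called lower without CoCl2, and 2 were called higher and 2 lower with it, where 5.38% of all probes were called lower without CoCl2 and 6.08% higher and 9.16% lower with it. EGFR, the receptor for epidermal growth factor, had signals of 1445, 424, 2086 and 1049 and ratios of -1.72 without and -1.39 with CoCl2. WNK4, a kinase that acts on claudins in the kidney, had signals of 61.2, 49.2, 74.2 and 41.4 and ratios of -0.26 and -1.24. Its dimmer second probe gave -1.42 with CoCl2. Without CoCl2 that probe went from 26.0 (NS-si) to 8.71 (Sp1-si), the latter not well above background, a level at least 2.87-fold lower. Leaving out the scaling would raise each Sp1-si to NS-si ratio with CoCl2 by 0.40. EGFR and the brighter WNK4 probe would then not be called lower with CoCl2. SNAI1, a repressor of claudin and cadherin genes that was added after its values were seen, had signals of 642, 1084, 1060 and 2910, highest with Sp1 silencing and CoCl2 together.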

How the data were processed

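RNA of 4 conditions was measured on 4 single-colour arrays, 1 per condition. The authors deposited each intensity as Agilent Feature Extraction 10.5.1.1 gave it, with the background subtracted and spatial trends removed but no normalization between arrays. The authors' value table equals these signals multiplied by 1 constant per array. From the deposited intensity, log2 values minus the 75th percentile of each array were taken, outlier spots were left out and spots of a probe were averaged. A probe passed as well above background if this call held for 50% or more of its kept spots. Symbols came from RefSeq accessions, which matched 28463 of 29296 spots. Precision is limited by the number of arrays, 1 per condition, and no test was run. The depth of an array is not defined, and its spread is that between spots of 264 probes with 10 spots.

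The members and all gene lists were chosen with earlier results of these data known. Every member probe is named. Of each context list the genes called in a comparison are named, at most 4 per list by size, all other claudins are named, and for the member with the largest range the 5 nearest probes are named. Genes of other rank are said to be added after their values were seen. The marker lists are used only to describe the cells. Alternatives were other scalings (none, median, quantile, the percentile taken over probes that passed on each array, the authors' table), outliers kept, other filters and a threshold of 0.58, the mean over the probes of a gene, and a normexp correction in limma 3.58.1 (R 4.3.3) with an offset of 50. The normexp correction used median signals, chosen after seeing the data in place of mean signals, which the columns used here do not give. Counting was tested on simulated data. Python 3.11.15, numpy 2.4.6, pandas 2.3.3 and matplotlib 3.10.9 were used. Per the file headers the probes were annotated on an earlier build than that of the RefSeq tables, so no probe coordinates are printed. One marker result is not reported here.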

Additional observations from a re-analysis of the deposited data

Results flagged for a closer look

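The brighter CLDN12 probe, A_23_P157268, had CoCl2 ratios of opposite sign in the 2 kinds of cells, each larger than its expected spot SD. For NS-si cells the log2 ratio was -0.048, for Sp1-si cells it was 0.127, and the difference of 0.175 was not tested, since each condition had 1 array. The other CLDN12 probe, A_23_P412515, had ratios of 0.67 and 0.11 with the same sign.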

How the results depend on the processing

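With a threshold of 0.58, the claudin probes called numbered 2 higher with CoCl2 in NS-si cells, 2 higher with CoCl2 in Sp1-si cells, 1 higher in the difference of these ratios and 3 lower after Sp1 silencing without CoCl2. Without scaling, 1 probe (CLDN7) was called higher in the difference and 2 (CLDN7 and CLDN16) were called lower after Sp1 silencing without CoCl2. This setting shifted the median of all probes by 0.45 in the difference and by -0.05 after Sp1 silencing without CoCl2. The share of all probes called without scaling is not given here, so these calls have no background beside them. The other 94 counts under the alternatives stayed at their main values. The median over claudin genes moved as follows, and its sign changed under at least 1 alternative in each comparison. For CoCl2 in NS-si cells it was -0.060 with the percentile taken over probes that passed on each array, -0.103 with the authors' table, 0.014 without the filter on dim probes, -0.252 without scaling and 0.0425 with normexp. For CoCl2 in Sp1-si cells it was -0.121 with the authors' table, -0.00041 with the mean over probes, 0.039 with median scaling, 0.030 without the filter, 0.157 without scaling, -0.104 with normexp and 0.0063 with quantile normalization. For the difference it was 0.019 with the mean over probes, 0.223 with median scaling, 0.576 without scaling, -0.0025 with normexp and 0.173 with quantile normalization. After Sp1 silencing with CoCl2 it was -0.0013 with the authors' table, -0.141 with the mean over probes, 0.047 with median scaling, 0.333 without scaling and 0.033 with quantile normalization. After Sp1 silencing without CoCl2 it was 0.016 with the authors' table, -0.089 without the filter, -0.077 without scaling and -0.059 with normexp.

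The SP1 probe A_23_P366312 had log2 ratios with CoCl2 of -4.08 with the mean over probes, -3.76 with median scaling, -3.47 without scaling, -2.64 with normexp and -3.75 with quantile normalization, and without CoCl2 of -3.86 with the mean and -2.50 with normexp. The probe A_23_P53397 gave, with CoCl2, -4.08, -4.19, -3.90, -2.29 and -4.14 under the same settings, and -3.86 and -2.00 without CoCl2. The cause of these shifts was not tested. Of the values of single claudin probes, 384 moved by less than the expected spot SD and 201 by more. The only called values were those of CLDN16 for Sp1-si to NS-si, at -2.01 without and -2.09 with CoCl2. They kept their sign, but at this size they could hardly change it, and many of the uncalled values did change sign. Signals near background limit CLDN2 and CLDN10. No paired analysis was possible because the labels give 1 sample per condition and so no replicate numbers that pair samples, and for the same reason no replicate could be left out.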
